A study of Homo sapiens with 9 samples.

Results

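The genes described here encode core and regulatory pre-mRNA splicing factors: the SR proteins, the hnRNP proteins, the SF3A and SF3B subunits of the U2 snRNP, and the U2AF proteins. They were chosen by symbol alone (names beginning with SRSF, HNRNP, SF3A, SF3B or U2AF), which gave 43 of the 19775 genes that had a probe set of exactly 1 gene. Of these, 10 were SRSF genes, 19 were HNRNP genes, 9 were SF3A or SF3B genes and 3 were U2AF genes. The remaining 2 symbols that met the rule are noncoding: HNRNPA3P1, a pseudogene, and HNRNPD-DT, a transcript that runs away from the HNRNPD gene. A further 11 symbols of this kind, among them SRSF2, SRSF9 and HNRNPH2, lay only on probe sets shared between genes and are not analysed here.

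The cells were A549, a line from a human lung adenocarcinoma, kept in DMEM with serum and otherwise untreated, and their RNA was hybridized to 9 Affymetrix arrays. Cells carried a control oligo (si-Ctrl, 3 arrays), an RNAi oligo against MED23 (si-Med23, 3 arrays) or an RNAi oligo against ELK1 (si-Elk1, 3 arrays). The 3 arrays of each knockdown hold 3 different oligos, named A, B and C, which the design text calls separate cell lines, so the spread within a knockdown includes differences between oligos. Whether the control arrays came from separate cultures is not stated, so the p-values reflect the spread between these particular samples alone, which may be technical. The series asks whether lung cancer cells require MED23, a subunit of the Mediator complex that joins transcription factors to RNA polymerase II. ELK1 is an ETS-family transcription factor downstream of ERK that contacts MED23.

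Splicing removes introns in steps that these proteins order. U2AF2 binds the polypyrimidine tract and U2AF1 the AG at the end of an intron, and SF3A and SF3B then hold the U2 snRNP at the branch point. SR proteins bind exonic enhancers and mostly favour use of the neighbouring splice sites, whereas hnRNP proteins coat nascent RNA and often repress them. Many genes of both families produce transcripts with alternative exons that limit their own expression, and MED23 has been reported to bind HNRNPL and to take part in alternative splicing.

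The promoters of these genes were examined because ELK1 recognises ETS sites. RefSeq (GRCh38.p14) gave 1 or more windows of 250 bases before to 50 bases after a start for 40 of the 43 genes, and a gene was counted once however many of its windows held a motif. The ETS motif CCGGAAGT, searched on both strands, was held by 10 of the 40 genes (25.0%) and by 9.64% of the 10259 tested genes with a window; counted by window, it lay in 4.14% of all 35116 windows. The shorter core CCGGAA, which the longer motif contains, was held by 14 of the 40 genes (35.0%) and by 33.6% of the tested genes, and lay in 17.2% of all windows. Of the 10 genes with the longer motif, 7 encode U2 snRNP or U2AF proteins (SF3A1, SF3A2, SF3A3, SF3B2, SF3B4, SF3B6 and U2AF2), and the other 3 were SRSF4, SRSF5 and HNRNPD. Among the genes that changed in si-Med23 below, the longer motif was held by 0 of the 10 that fell and 1 of the 5 that rose. The stretches around the motif in those 7 U2 snRNP and U2AF genes are shown because the motif recurred in genes of 1 step of splicing, branch point recognition. Each runs 5′ to 3′ on the gene's strand and ends at or before the annotated start, and capitals mark the motif or its reverse complement.
SF3A1, chr22:30356906-30356973, minus strand: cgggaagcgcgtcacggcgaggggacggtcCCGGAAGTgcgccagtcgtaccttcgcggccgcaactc
SF3A2, chr19:2236785-2236823, plus strand: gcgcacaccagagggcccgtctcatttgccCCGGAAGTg
SF3A3, chr1:37990054-37990121, minus strand: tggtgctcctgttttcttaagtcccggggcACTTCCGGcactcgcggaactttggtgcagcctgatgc
SF3B2, chr11:66052281-66052348, plus strand: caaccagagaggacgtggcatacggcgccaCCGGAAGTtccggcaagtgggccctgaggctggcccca
SF3B4, chr1:149927804-149927859, minus strand: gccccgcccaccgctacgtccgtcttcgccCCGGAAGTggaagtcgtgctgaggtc
SF3B6, chr2:24076448-24076515, minus strand: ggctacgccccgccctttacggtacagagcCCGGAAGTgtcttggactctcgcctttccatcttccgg
U2AF2, chr19:55654975-55655034, plus strand: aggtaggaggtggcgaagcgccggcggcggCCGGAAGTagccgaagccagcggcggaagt

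The E-box CACGTG, the site of Myc and USF factors, was held by 7 of the 40 genes (17.5%) and by 12.8% of the tested genes, and lay in 7.26% of all windows. Those 7 included SF3B1, HNRNPH3 and HNRNPA3, which are shown because they are 3 of the 10 genes that fell in si-Med23 below. The other holders, HNRNPD, HNRNPDL, HNRNPM and HNRNPUL1, were not among the genes that fell or rose, and 0 of the 5 that rose held it. A link between the E-box and the falls was not tested. Capitals mark the E-box. The cyclic AMP response element TGACGTCA was held by 0 of the 40 genes beside 3.67% of the tested genes (1.85% of all windows), and the SRF box by 1 (HNRNPD) beside 1.51% (1.29% of all windows). A match is a stretch of letters, not a measured binding site.
SF3B1, chr2:197435101-197435166, minus strand: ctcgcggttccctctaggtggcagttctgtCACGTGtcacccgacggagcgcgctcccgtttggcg
HNRNPH3, chr10:68331613-68331678, plus strand: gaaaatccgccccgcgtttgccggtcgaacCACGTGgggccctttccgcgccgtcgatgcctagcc
HNRNPA3, chr2:177212693-177212758, plus strand: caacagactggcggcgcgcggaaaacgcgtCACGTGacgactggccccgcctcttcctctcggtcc

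The targeted genes fell under their own oligos. The log2 signal of MED23 went from 9.27, 9.05 and 9.08 (si-Ctrl) to 6.79, 6.19 and 7.06 (si-Med23), a log2 fold change of -2.46 ± 0.27 (limma SE; adjusted p = 0.00184). ELK1 fell by 2.07 ± 0.26 in si-Elk1 (adjusted p = 0.00684), to 7.07, 7.15 and 7.83. On the array of si-Elk1 oligo C, MED23 was at 8.18, below the 8.87 and 9.02 of oligos A and B. Of 12 markers of a lung epithelial line, 11 passed the filter on dim genes, with a summed signal of 177939 to 197327 in si-Ctrl, 224103 to 277463 in si-Med23 and 199879 to 236234 in si-Elk1. Blood markers summed to at most 827 on any array and only CD3E, CD79A and HBB of the 6 on the array passed the filter, while endothelial and fibroblast markers passed only for PECAM1 and THY1. In limma 8 of the 11 epithelial markers were higher in si-Med23, 1 of them (CDH1) was higher in si-Elk1, and THY1 rose by 0.65 ± 0.15 in si-Elk1 (adjusted p = 0.0464). Array-wide signal also differed between groups. The spiked poly-A control RNAs were at mean log2 signals of 7.43 to 7.82 in si-Ctrl, 9.08 to 9.31 in si-Med23 and 7.92 to 8.46 in si-Elk1, and the median signal was 77.1 to 80.0, 64.9 to 69.0 and 84.1 to 88.2. All fold changes below are relative to the deposited scaling. Scaling on the spikes would shift every gene by -1.61 in si-Med23 against si-Ctrl, scaling on the hybridization controls by -0.50, and centring on the array median by 0.23. The sources of these array-wide differences, fewer cells and less RNA per cell among them, cannot be told apart in such bulk samples. The part of these differences in the results was not tested.

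In si-Med23 the splicing factor genes did not move as a block: 5 were higher than in si-Ctrl and 10 were lower, of 42 tested. The 5 that rose were HNRNPL, SF3A2, U2AF1, SF3B5 and HNRNPAB, and the 10 that fell were SRSF11, SF3B1, HNRNPH3, HNRNPA3, SRSF6, SRSF10, HNRNPD-DT, HNRNPA2B1, HNRNPR and HNRNPH1. These calls are at an adjusted p under 0.05 in limma over 12616 genes, of which 20.3% were called higher and 19.5% lower, and the splicing genes' shares were 11.9% higher and 23.8% lower. Their median log2 fold change was 0.10, beside 0.09 for all genes tested, and the groups did not overlap for 26 of the 42, beside 57.3% of all genes. With other scalings these counts turned: 19 higher and 4 lower after median centring (all genes 37.8% and 13.3%), 1 and 22 on the hybridization controls (3.24% and 41.3%), and 0 and 42 on the poly-A spikes (0.143% and 94.2%). SRSF12, a minor SR protein, lay below the filter (mean log2 signal 5.95) and was not tested.

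**Figure D1:**
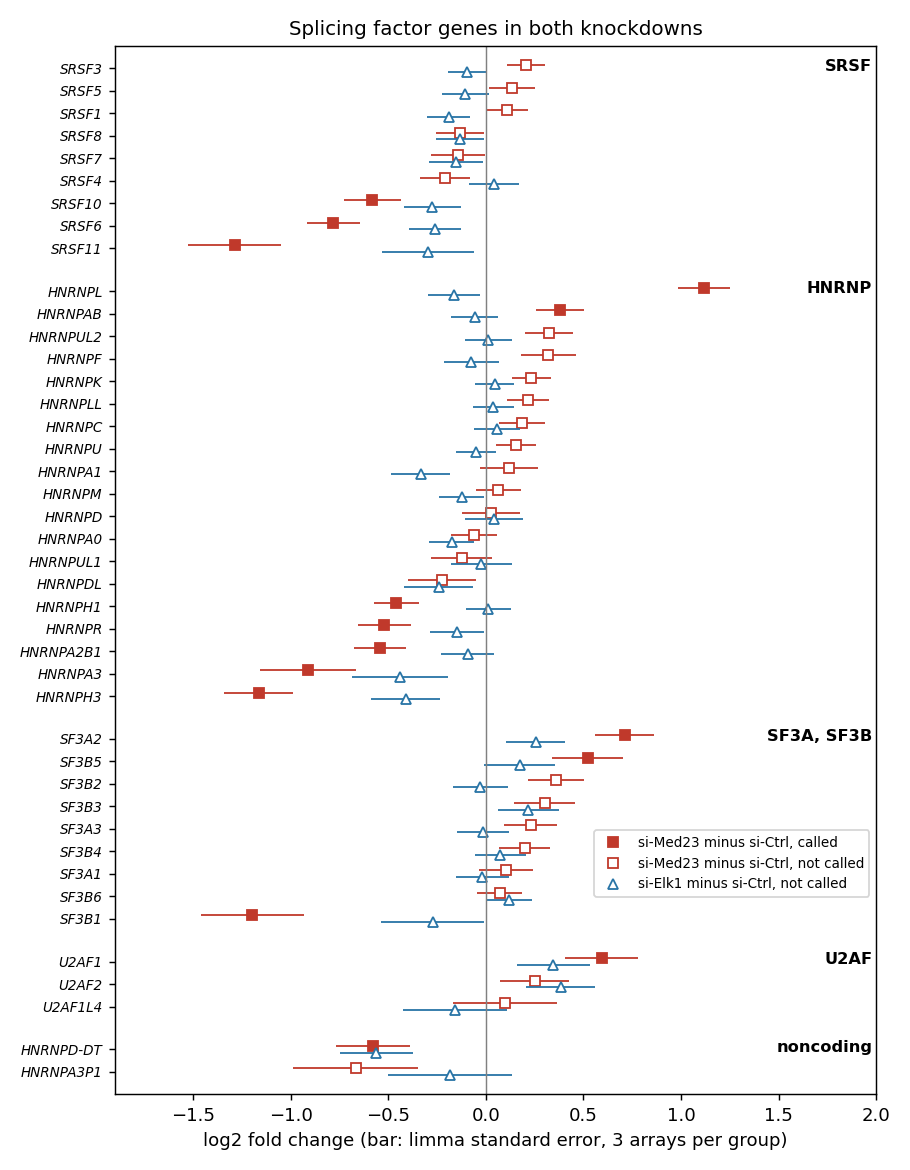
Log2 fold change of each of the 42 tested genes in si-Med23 (squares) and si-Elk1 (triangles) against the same si-Ctrl arrays, with bars for the limma standard error (3 arrays per group); filled symbols passed an adjusted p of 0.05. HNRNPL stands alone on the right at 1.12, and SRSF11, SF3B1 and HNRNPH3 lie furthest left in si-Med23, while no triangle is filled.

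HNRNPL, which binds CA-rich RNA and regulates alternative exons, showed the largest rise. Its log2 signal was 9.90, 9.91 and 9.86 in si-Ctrl, 11.02, 10.99 and 11.01 in si-Med23, and 9.57, 9.62 and 10.00 in si-Elk1. All 3 MED23 oligos gave nearly the same level, above every other array. The level was 217% of control (log2 fold change 1.12 ± 0.13; adjusted p = 0.00189), and a dimmer probe set of the gene (202072_at) gave 1.35 ± 0.24 (adjusted p = 0.00549). The rise was called under every setting tried except scaling on the poly-A spikes, where it became a fall (-0.49). HNRNPLL, its close paralogue, differed by 0.22 ± 0.11 (adjusted p = 0.135) and was not called.

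HNRNPAB, an hnRNP of the A/B type, was at 13.78, 13.86 and 13.70 in si-Ctrl, 14.18, 14.25 and 14.04 in si-Med23, and 13.67, 13.61 and 13.89 in si-Elk1. The si-Med23 arrays lay above both other groups, by 0.38 ± 0.12 against si-Ctrl (adjusted p = 0.0363), but this call is fragile: its sign turned on the hybridization controls (-0.12) and on the poly-A spikes (-1.23).

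The falls among the hnRNP genes were led by HNRNPH3, a relative of the G-run binding proteins HNRNPH1 and HNRNPF. HNRNPH3 was at 11.95, 12.06 and 12.18 in si-Ctrl, 10.95, 10.93 and 10.83 in si-Med23, and 11.88, 11.84 and 11.24 in si-Elk1. The si-Med23 arrays lay below all 6 others, at 44.6% of control (-1.16 ± 0.18; adjusted p = 0.00276). Its 4 probe sets differed in the same direction, from -1.16 to -0.58. HNRNPH1 was at 14.37, 14.53 and 14.39, then 13.96, 14.04 and 13.91, then 14.54, 14.48 and 14.30 in si-Ctrl, si-Med23 and si-Elk1, a fall of 0.46 ± 0.11 in si-Med23 (adjusted p = 0.0145) on a probe set that another of the gene contradicts (below). HNRNPF differed by 0.32 ± 0.14 (adjusted p = 0.101).

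HNRNPA3 and HNRNPA2B1, both of the A/B type that binds UAG-containing RNA, also fell. HNRNPA3 was at 11.19, 11.39 and 11.52 in si-Ctrl, 10.61, 10.27 and 10.49 in si-Med23, and 11.21, 11.26 and 10.32 in si-Elk1 (-0.91 ± 0.25 in si-Med23; adjusted p = 0.0195). The si-Elk1 arrays were divided, with oligo C at the level of si-Med23 and oligos A and B at that of control. All 3 of its probe sets were called lower in si-Med23, from -1.79 to -0.91. HNRNPA2B1 was at 13.75, 13.81 and 13.82, then 13.32, 13.30 and 13.13, then 13.86, 13.79 and 13.45, with no overlap between si-Med23 and either other group (-0.54 ± 0.13; adjusted p = 0.0141). HNRNPR, a paralogue of SYNCRIP, fell by 0.52 ± 0.14 (adjusted p = 0.0177).

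The remaining 12 of the 19 HNRNP genes were not called in si-Med23 on the brightest probe set, with differences from -0.23 (HNRNPDL) to 0.32 (HNRNPUL2 and HNRNPF). Dimmer probe sets of HNRNPDL were called lower, 212454_x_at at -0.90 ± 0.22 (limma adjusted p = 0.0149 over all probe sets) and 209068_at at -0.65 ± 0.19 (0.0270). HNRNPK and HNRNPC were, after HNRNPH1, the members of highest mean signal. HNRNPK, which binds C-rich RNA, was at 14.05, 14.14 and 14.05 in si-Ctrl, 14.27, 14.34 and 14.33 in si-Med23, and 14.08, 14.14 and 14.15 in si-Elk1 (0.23 ± 0.10 in si-Med23; adjusted p = 0.091). HNRNPC, which binds uridine tracts, was at 13.84, 13.93 and 13.85, then 14.19, 13.98 and 14.01, then 13.87, 13.84 and 14.08 (0.19 ± 0.12; adjusted p = 0.231). On these probe sets of both genes the si-Med23 arrays lay above control without overlap, yet the difference missed the threshold. The other probe set of HNRNPK (200097_s_at) went the other way, also without overlap. It went from 13.46, 13.46 and 13.57 in si-Ctrl to 13.34, 13.21 and 13.20 in si-Med23 (-0.25 ± 0.13, limma adjusted p = 0.172 over all probe sets). A probe set of HNRNPC nearly as bright (212626_x_at) differed by -0.05 ± 0.12, with overlap. Of the noncoding pair, HNRNPD-DT fell by 0.58 ± 0.19 (adjusted p = 0.0382) while HNRNPD itself differed by 0.03 ± 0.15, and HNRNPA3P1, whose sequence is close to that of HNRNPA3, differed by -0.67 ± 0.32 (adjusted p = 0.125).

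Among the SR proteins 3 of 9 fell and 0 rose, with a median of -0.14. SRSF11 was at 12.94, 12.61 and 13.08 in si-Ctrl, 11.73, 11.22 and 11.81 in si-Med23, and 12.50, 13.00 and 12.25 in si-Elk1. It showed the largest fall of all members, to 40.9% of control (-1.29 ± 0.24; adjusted p = 0.00500), with the 3 si-Med23 arrays below all others. SRSF6, which binds purine-rich exonic enhancers, was at 11.53, 11.56 and 11.60 in si-Ctrl, 10.74, 10.81 and 10.79 in si-Med23, and 11.31, 11.53 and 11.06 in si-Elk1, a fall of 0.78 ± 0.13 (adjusted p = 0.00396). SRSF10, which acts as a repressor when dephosphorylated, was at 12.06, 11.96 and 11.93, then 11.56, 11.39 and 11.26, then 11.85, 11.83 and 11.45, a fall of 0.58 ± 0.15 in si-Med23 (adjusted p = 0.0144). The other 6 differed by -0.21 (SRSF4) to 0.21 (SRSF3), and SRSF1, the best studied SR protein, by 0.11 ± 0.11, none past the threshold on the brightest probe set. The falls of SRSF6 and SRSF10 kept their sign under all scalings, and that of SRSF11 did so for this probe set.

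The U2 snRNP subunits went in both directions. SF3B1, the large subunit that clamps the branch point, was at 12.95, 13.07 and 13.19 in si-Ctrl, 11.90, 11.76 and 11.97 in si-Med23, and 13.18, 13.12 and 12.10 in si-Elk1. It fell to 43.6% of control in si-Med23 (-1.20 ± 0.26; adjusted p = 0.00915), while in si-Elk1 oligos A and B were at control level and oligo C near that of si-Med23. All 5 probe sets of SF3B1 were called lower, from -1.53 to -1.09, and the call held under every alternative setting and with any 1 array left out.

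The other 8 SF3A and SF3B genes all had positive differences, of which 2 passed. SF3A2, a subunit that helps bind U2 snRNP to the branch site region, was at 9.30, 9.60 and 9.28 in si-Ctrl, 10.15, 10.25 and 9.92 in si-Med23, and 9.52, 9.57 and 9.85 in si-Elk1 (0.71 ± 0.15; adjusted p = 0.00823), and its other probe set gave 0.70 ± 0.17 (adjusted p = 0.0145). SF3B5, a small SF3B subunit, was at 12.80, 12.99 and 12.65, then 13.38, 13.38 and 13.24, then 12.82, 12.75 and 13.38 (0.52 ± 0.18; adjusted p = 0.0481). SF3A1, SF3A3, SF3B2, SF3B3, SF3B4 and SF3B6 differed by 0.07 to 0.36 and were not called. Of these positive differences only those of SF3A2 and SF3B5 remained above 0 on the hybridization controls, at 0.21 and 0.02, where neither was called (adjusted p = 0.278 and 0.919), and none did on the poly-A spikes.

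U2AF1 was at 12.28, 12.87 and 12.89 in si-Ctrl, 13.29, 13.32 and 13.22 in si-Med23, and 12.91, 12.89 and 13.28 in si-Elk1. It rose by 0.59 ± 0.19 in si-Med23 (adjusted p = 0.0340), and 1 control array lay well below the other two. Without that array the difference was 0.40 (adjusted p = 0.0955). U2AF2 and U2AF1L4, a paralogue of U2AF1, differed by 0.25 ± 0.18 and 0.10 ± 0.27, neither called.

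**Figure D2:**
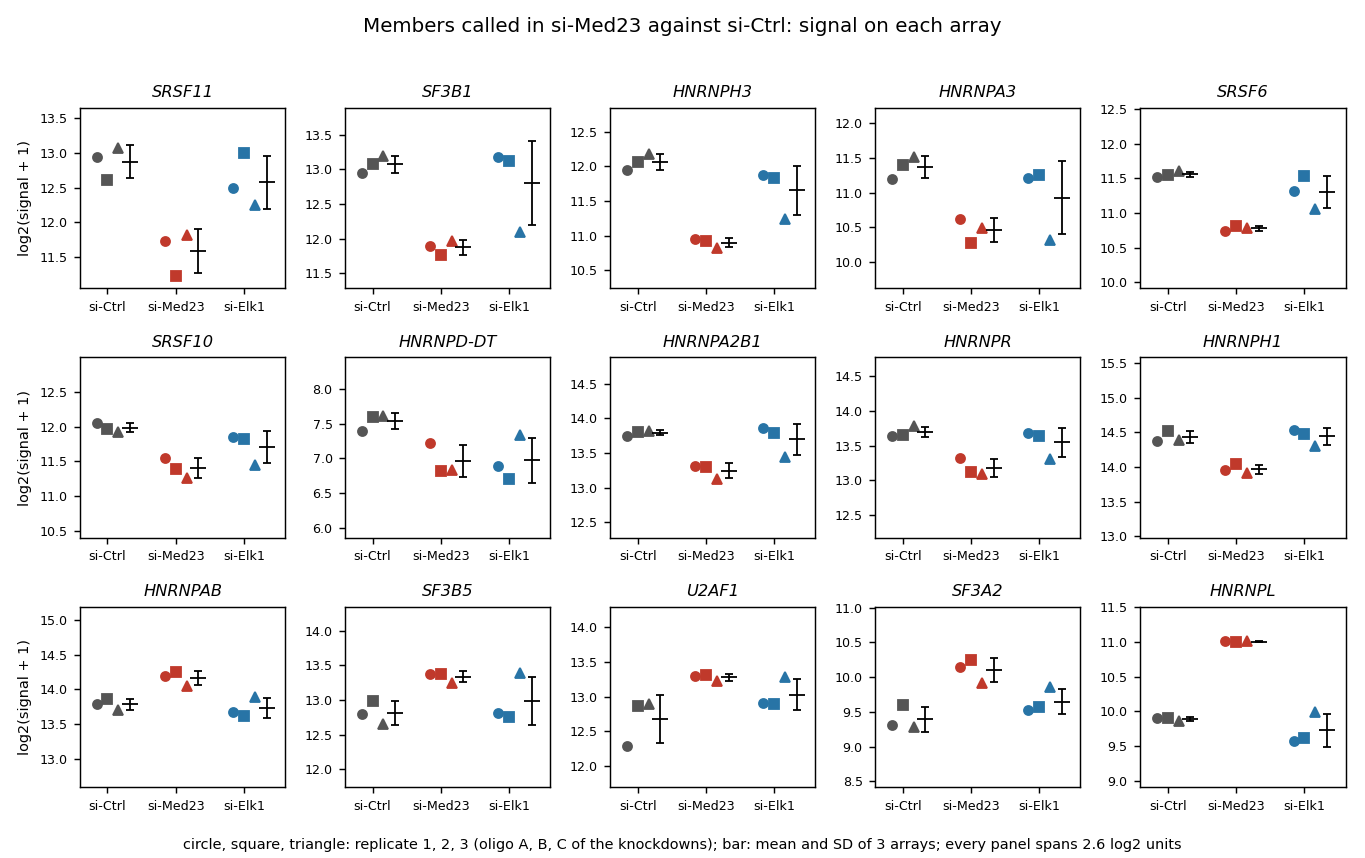
Log2 signal on each array for the 15 genes called in si-Med23 against si-Ctrl, with bars for the mean and SD of 3 arrays; all panels span the same range of log2 units. The si-Med23 points stand apart from si-Ctrl in each panel, and in 14 of 15 the triangle of si-Elk1, oligo C, is the most extreme si-Elk1 array in the direction of si-Med23.

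Of the 15 calls, 7 were kept with each of the 9 arrays left out in turn: HNRNPL, SF3A2, SF3B1, SRSF11, HNRNPH3, SRSF6 and HNRNPA2B1. SRSF10 lost its call without control replicate 1 (adjusted p = 0.0505) and HNRNPH1 without control replicate 2 (0.0547). HNRNPA3 lost it without control replicate 2 or 3 or oligo B of si-Med23 (0.0516 to 0.0667), and HNRNPR without control replicate 3 or oligo B or C of si-Med23 (0.0514 to 0.0659). These 4 falls kept their direction and remained near the threshold. U2AF1 lost its call without control replicate 1 or any 1 of the si-Med23 oligos (0.0635 to 0.0955). HNRNPD-DT lost it without any 1 control array, oligo B or C of si-Med23 or oligo A of si-Elk1 (0.0531 to 0.109), and HNRNPAB without any 1 control array, oligo A or B of si-Med23 or oligo A of si-Elk1 (0.0532 to 0.119). SF3B5 kept its call in only 2 of the 9 (0.0573 to 0.148 without any 1 array other than oligo B or C of si-Elk1).

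Other settings ended some of these calls too. After median centring, 6 of the 10 falls were no longer called: HNRNPA2B1 (adjusted p = 0.103), HNRNPA3 (0.0535), HNRNPD-DT (0.16), HNRNPH1 (0.143), HNRNPR (0.139) and SRSF10 (0.0917). When a gene's probe sets were averaged, HNRNPA2B1 (adjusted p = 0.0613), HNRNPH1 (0.552), HNRNPR (0.173), SRSF6 (0.665), SF3B5 (0.0575) and U2AF1 (0.835) were not called. SRSF11 was not called without _x_at and _s_at probe sets (0.717). On the hybridization controls, U2AF1 (0.682) and HNRNPAB (0.466) lost their calls beside SF3A2 and SF3B5. With quantile normalization or with no filter on dim genes, HNRNPAB, HNRNPD-DT, SF3B5 and U2AF1 lost theirs, and HNRNPA3 did with no filter (0.052).

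In si-Elk1 no splicing factor gene passed the threshold against si-Ctrl. Limma called 0 of 42 in either direction, where 3.07% of all genes tested were called higher and 1.19% lower. An unadjusted p under 0.05 was reached by 2 of the 42, beside 3162 of all 12616 genes. The median log2 fold change was -0.08, beside 0.05 for all genes, and groups did not overlap for 9 of 42, beside 36.3% of all genes. The smallest adjusted p was 0.116 for HNRNPD-DT, at 7.40, 7.60 and 7.61 in si-Ctrl, 7.22, 6.82 and 6.83 in si-Med23, and 6.89, 6.70 and 7.33 in si-Elk1 (-0.56 ± 0.19 in si-Elk1). The differences of the others ran from -0.44 (HNRNPA3) to 0.38 (U2AF2). The 7 SF3A, SF3B and U2AF genes with the ETS motif printed above differed in si-Elk1 by -0.03 (SF3B2) to 0.38 (U2AF2), none called. On the poly-A spikes 31 of the 42 were called lower in si-Elk1, where 38.8% of all genes were.

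The 3 ELK1 oligos did not give the same picture. Among the 10 genes that fell in si-Med23, oligo C had the lowest of the 3 si-Elk1 values in 9, and its median difference from the control mean was -0.52, beside -0.15 for oligo A and -0.04 for oligo B. Among the 5 that rose, oligo C had the highest value in all 5, with a median difference of 0.46 beside 0.01 and -0.06. The same held over the whole array, where oligo C had the lowest value in 84.2% of the 2462 genes lower in si-Med23 and the highest in 77.0% of the 2561 higher ones. Oligo C thus stood apart over all genes as well as over these. The MED23 signal on that array was also the lowest of the group (above), and its part in these values was not tested. Without oligo C the count in si-Elk1 against si-Ctrl was also 0 in each direction. Only 265 of all 12616 genes were called there, beside 537 with it, so a count of 0 among 42 says little.

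The knockdowns were also compared directly, in a contrast that shares its si-Med23 and si-Elk1 arrays with those above. In si-Med23 against si-Elk1, HNRNPL (1.28 ± 0.13; adjusted p = 0.00319) and HNRNPAB (0.44 ± 0.12; adjusted p = 0.0368) were higher. SRSF11 (-0.99 ± 0.24; adjusted p = 0.0236), SF3B1, HNRNPH3 (-0.75 ± 0.18; adjusted p = 0.0224), SRSF6 (-0.52 ± 0.13; adjusted p = 0.0289), HNRNPH1 (-0.47 ± 0.11; adjusted p = 0.0254) and HNRNPA2B1 were lower. The counts of 2 and 6 of 42 stand beside 9.54% and 12.2% of all genes tested, and groups did not overlap for 20 of 42 beside 38.0% of all. For SF3B1 the difference was -0.92 ± 0.26 (adjusted p = 0.0397) and for HNRNPA2B1 -0.45 ± 0.13 (adjusted p = 0.0457). HNRNPL was the only one of the 8 whose call was kept with each array left out; without oligo A or oligo B of si-Elk1 each of the other 7 was lost (adjusted p = 0.0660 to 0.149). Without oligo C of si-Elk1, where 4496 of all 12616 genes were called beside 2739 with it, the counts were 6 higher and 9 lower. They also depended on the scaling, with 23 higher and 0 lower after median centring (all genes 37.3% and 4.38%), 1 and 9 on the hybridization controls (2.85% and 31.3%) and 0 and 39 on the poly-A spikes (0.262% and 81.0%).

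Many of these genes are read by several probe sets, and in si-Med23 the probe sets of a gene often differed. Of the 146 member probe sets, 128 passed the filter. Among genes with at least 2 probe sets above the filter, the median number was 3 for members and 2 for all genes. Probe sets of a gene were said to disagree where they were called in opposite directions, or where they differed by over 1 in log2 fold change with at least 1 called, in a fit of 23060 probe sets that called 15.9% higher and 20.3% lower in si-Med23 against si-Ctrl. They disagreed in 14 of the 34 members with at least 2 probe sets (41.2%), beside 15.7% of the 6063 such genes, and lay in opposite directions in 3, beside 1.45%. Genes with more probe sets can disagree more often. With 2 probe sets the shares were 1 of 11 members and 7.25% of genes, near each other. With 3 or 4 they were 8 of 15 members and 22.1% of genes, and with 5 or more they were 5 of 8 and 50.5%. In si-Elk1 against si-Ctrl, where 1.52% of probe sets were called higher and 0.646% lower, they disagreed in 0 members beside 0.940% of genes. In si-Med23 against si-Elk1, where 7.19% and 11.1% were called, they disagreed in 11 members beside 9.88% of genes, in opposite directions in 3 beside 0.676%. Under a stricter filter at the 70th percentile of probe set means, chosen after the data were seen, the 14 became 9.

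**Figure D3:**
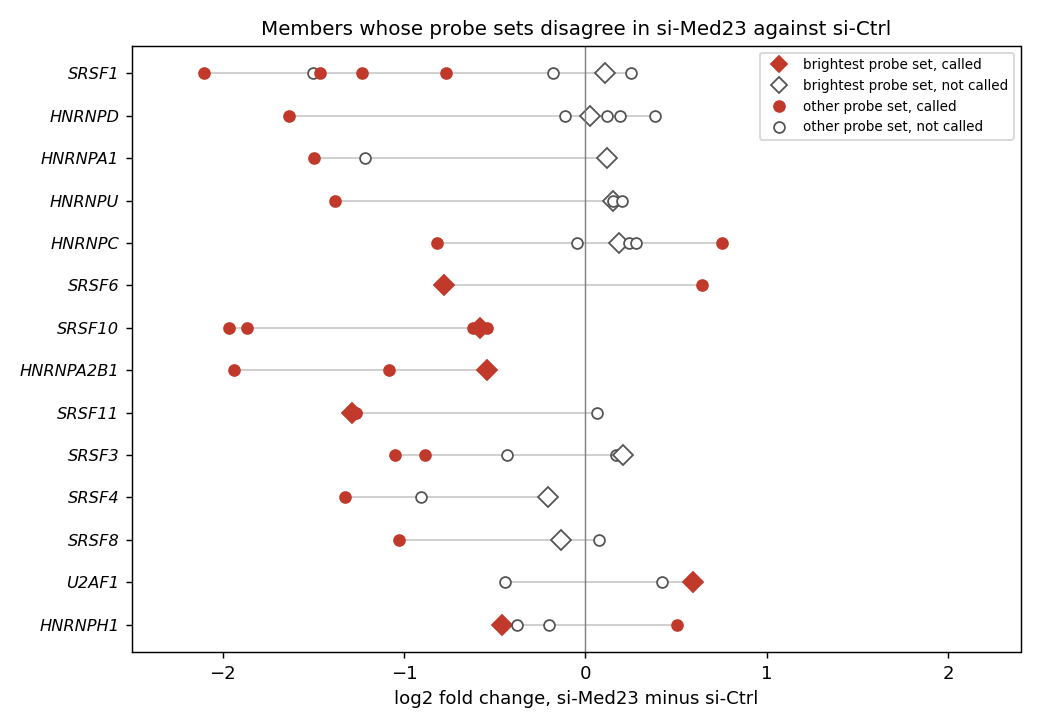
Log2 fold change in si-Med23 against si-Ctrl for every probe set above the filter of the 14 genes whose probe sets disagree; diamonds are the brightest probe set of a gene, and filled symbols passed an adjusted p of 0.05 over all probe sets. For most genes the brightest probe set lies near 0 or right of the others, and called points reach -2.10 for SRSF1 and -1.96 for SRSF10.

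SRSF6 was the clearest case. Its brighter probe set (208804_s_at) fell by 0.78 ± 0.14 (adjusted p = 0.00543 over all probe sets), as above, while the other (206108_s_at) rose, from 10.16, 10.02 and 10.10 in si-Ctrl to 10.77, 10.78 and 10.68 in si-Med23, with 9.50, 9.72 and 9.94 in si-Elk1. The rise was 0.65 ± 0.14 (adjusted p = 0.00943), and against si-Elk1 it was 1.02 ± 0.14 (adjusted p = 0.00740). On both probe sets the si-Med23 arrays stood apart from all 6 others, in opposite directions. In HNRNPH1 the brightest probe set (213619_at) fell by 0.46 while 201031_s_at rose by 0.51 ± 0.13 (adjusted p = 0.0172), from 11.63, 11.83 and 11.77 to 12.29, 12.15 and 12.30, with 12.12, 11.98 and 12.26 in si-Elk1. In HNRNPC 227110_at fell by 0.82 ± 0.18 (adjusted p = 0.0108), from 11.08, 10.89 and 11.06 to 10.35, 10.05 and 10.17, and 235500_at rose by 0.75 ± 0.15 (adjusted p = 0.00714), from 7.91, 7.90 and 7.99 to 8.82, 8.49 and 8.75. Its 4 brighter probe sets differed by -0.05 to 0.28 and were not called, and 235500_at was nearly as high in si-Elk1 (0.70 ± 0.15; adjusted p = 0.0524).

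**Figure D4:**
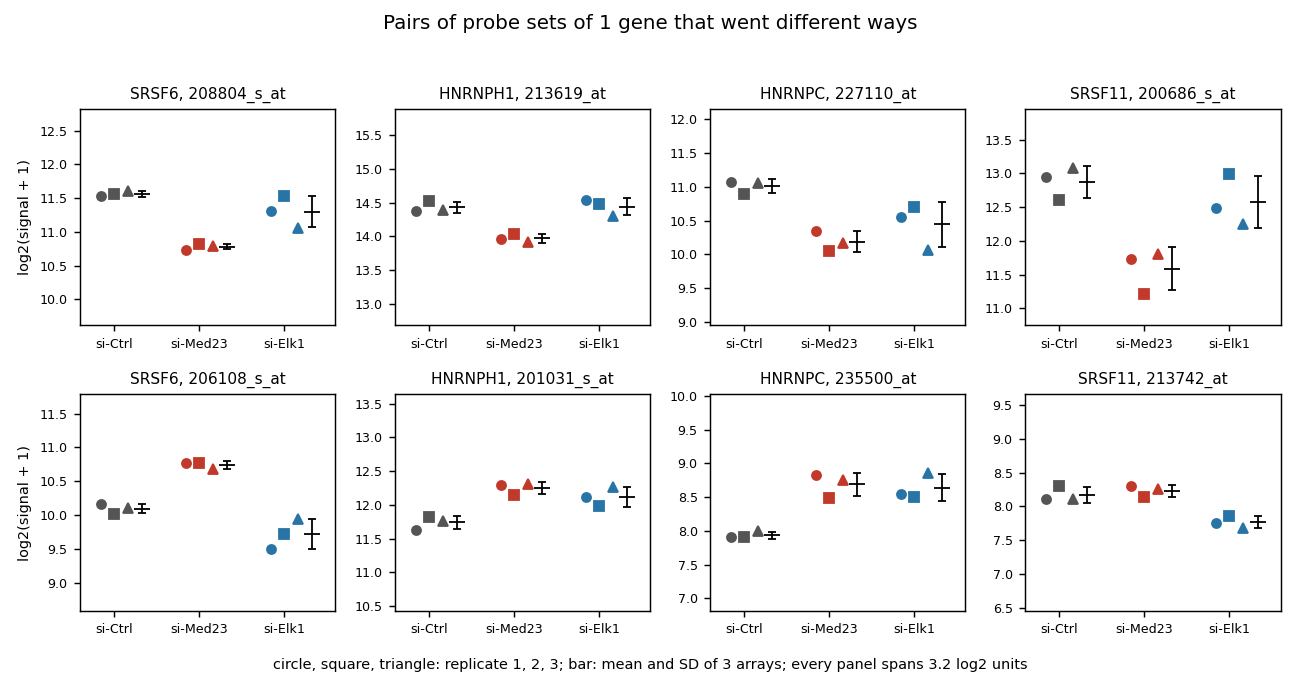
Log2 signal on each array for pairs of probe sets of SRSF6, HNRNPH1, HNRNPC and SRSF11, upper and lower row, with bars for the mean and SD of 3 arrays; all panels span the same range. In SRSF6, HNRNPH1 and HNRNPC the si-Med23 points lie below si-Ctrl in the upper panel and above it in the lower one; in SRSF11 the lower panel shows no fall (0.06).

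SRSF1 had 8 probe sets above the filter, the most of these 14 genes. The brightest differed by 0.11, but 4 of the dimmer ones were called lower, from -0.77 to -2.10. The strongest (229246_at) was at 7.57, 8.20 and 7.55 in si-Ctrl, 5.14, 5.75 and 6.13 in si-Med23, and 7.98, 7.84 and 7.23 in si-Elk1 (-2.10 ± 0.31, adjusted p = 0.00326). Its values for oligos A and B of si-Med23 lay below the filter level of 6.05, so the size of this fall is uncertain. A brighter one (226419_s_at) also fell, at 9.91, 10.18 and 10.02, then 8.25, 8.81 and 8.66, then 9.56, 9.96 and 9.47 (-1.46 ± 0.19, adjusted p = 0.00282). Against si-Elk1 its probe sets were called in opposite directions, 208863_s_at higher by 0.49 ± 0.13 (adjusted p = 0.0380) and 229246_at at -2.01 ± 0.31 (adjusted p = 0.00832). SRSF11 did the same against si-Elk1, with 200685_at at -1.08 ± 0.28 (adjusted p = 0.0339) and 213742_at at 0.46 ± 0.12 (adjusted p = 0.0353).

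In SRSF3, SRSF4 and SRSF8 the brightest probe set was not called and a dimmer one fell, and SRSF10 fell on its brightest probe set and more on a dimmer one. SRSF10 fell on all 5 probe sets, from -1.96 to -0.54, and 204299_at was at 10.18, 10.19 and 10.46 in si-Ctrl, 8.40, 8.14 and 8.39 in si-Med23, and 9.91, 10.08 and 9.02 in si-Elk1 (-1.96 ± 0.26; adjusted p = 0.00282). SRSF3, which also acts in mRNA export, was not called on its brightest probe set, at 13.88, 13.90 and 13.87, then 14.13, 14.10 and 14.04, then 13.81, 13.77 and 13.79. It fell by 0.89 ± 0.16 on 208673_s_at (adjusted p = 0.00556), from 11.35, 11.35 and 11.41 to 10.67, 10.38 and 10.41. The 2 sets of values belong to 1 gene on the same arrays. SRSF4 fell by 1.33 ± 0.27 on 239512_at (adjusted p = 0.00806), from 7.29, 7.04 and 7.17 to 5.57, 6.31 and 5.63. On that probe set oligos A and C of si-Med23 lay below the filter level of 6.05. SRSF8 fell by 1.02 ± 0.18 on 228760_at (adjusted p = 0.00535; 8.71, 8.80 and 8.83 to 7.80, 7.68 and 7.78).

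Of the hnRNP genes, HNRNPA1, HNRNPA2B1, HNRNPU and HNRNPD fell most on a probe set other than the brightest, unlike HNRNPH1 and HNRNPH3, whose brightest probe set fell most. HNRNPA1, the most studied splicing repressor, differed by 0.12 ± 0.15 on its brightest probe set and by -1.49 ± 0.23 on 221919_at (adjusted p = 0.00362), which went from 7.35, 8.12 and 7.67 in si-Ctrl to 5.99, 6.43 and 6.23 in si-Med23. HNRNPA2B1 fell on all 3 probe sets above the filter, least on the brightest and most on 225107_at, from 9.69, 9.66 and 10.11 to 7.85, 7.82 and 7.99 (-1.94 ± 0.36; adjusted p = 0.00596). HNRNPU, a nuclear scaffold protein, differed by 0.15 ± 0.11 on the brightest and fell by 1.38 ± 0.25 on 225805_at (adjusted p = 0.00582), from 7.92, 8.61 and 8.73 to 6.76, 7.03 and 7.34. In each of these genes the largest fall lay on a dimmer probe set. HNRNPD, which binds AU-rich elements, had 1 called probe set of 6, 213359_at (-1.63 ± 0.55, adjusted p = 0.0460). It went from 6.77, 8.14 and 7.77 in si-Ctrl to 5.49, 6.05 and 6.24 in si-Med23. Oligo A of si-Med23 lay below the filter level of 6.05 there and oligo B at that level. The 5.99 of HNRNPA1 on 221919_at also lay below it. U2AF1 was called on its brightest probe set alone, with -0.44 ± 0.23 on 231904_at. SF3B2 disagreed only against si-Elk1, where 1558230_at was lower by 1.43 ± 0.30 (adjusted p = 0.0189) at 5.70, 5.48 and 5.88 against 7.10, 6.99 and 7.25. All of its si-Med23 values lay below the filter level of 6.05, which it passed only through the other arrays. The size of that difference is therefore uncertain.

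Over the 34 members with at least 2 probe sets, the brightest were called higher in 3 and lower in 9 in si-Med23 (8.82% and 26.5%, beside 18.0% and 24.1% of all such genes), with a median of 0.07. The other 86 probe sets were called higher in 8 and lower in 31 (9.30% and 36.0%, beside 12.4% and 22.4%), with a median of -0.38. Over all such genes the medians were 0.04 and -0.08, so that the dimmer probe sets lay lower there too, by less. Suffixes matter here because names ending in _s_at or _x_at mark probes shared between transcripts or open to other sequences. The 69 member probe sets with those endings had a median of 0.03, with 6 higher and 19 lower, and the 59 others had a median of -0.44, with 6 higher and 22 lower, beside 0.08 and -0.03 for all genes. Where each probe set lies on its transcripts was not analysed here.

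The wider splicing machinery was examined through lists of genes outside these families, whose background is the 20.3% and 19.5% given above. Of 24 SR-related proteins, 5 were higher and 10 lower in si-Med23, with a median of -0.17. LUC7L3, a U1-associated SR-like protein, fell by 1.59 ± 0.18 (adjusted p = 0.00184), SREK1IP1 by 1.13 ± 0.12 (0.00184) and RSRC2 by 0.75 ± 0.11 (0.00270), while SAFB, a scaffold attachment protein, rose by 1.05 ± 0.15 (0.00248). None of the 24 passed in si-Elk1, where SREK1IP1 was at -0.48 (adjusted p = 0.0622) and LUC7L3 at -0.68 (0.0663). Of 10 tested genes on the list of kinases that act on SR proteins, 2 were higher and 5 lower. SRPK1, which phosphorylates SR proteins in the cytoplasm, fell by 0.94 ± 0.17 (adjusted p = 0.00515), and CLK3, a nuclear SR kinase, rose by 0.55 ± 0.16 (0.0231). The list also holds genes with wider roles, of which AKT1, a signalling kinase, rose by 1.19 ± 0.25 (0.00735) and TOPORS, a ubiquitin and SUMO ligase, fell by 0.95 ± 0.23 (0.0136). In si-Elk1 none passed, with SRPK1 at -0.43 (0.174) and CLK3 at 0.37 (0.190).

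Genes of the snRNP particles were mixed in direction. Of 25 tested Sm, LSm, U1 and U2 proteins, 5 were higher and 6 lower in si-Med23: LSM4 rose by 0.56 ± 0.10 (adjusted p = 0.00400) and LSM2 by 0.69 ± 0.15 (0.00872), whereas SNRPB2, a U2 protein, fell by 0.59 ± 0.12 (0.00687) and DDX46, a helicase that acts with U2, by 1.40 ± 0.30 (0.00885). None passed in si-Elk1, with SF1 at -0.28 (0.159) and LSM4 at 0.23 (0.184). Of 39 tri-snRNP and catalytic complex genes, 5 were higher and 9 lower: SNRNP40, a U5 protein, rose by 1.09 ± 0.12 (0.00184), and BCAS2 (-0.93 ± 0.14), CWC22 (-1.56 ± 0.24) and CWC27 (-1.04 ± 0.17), all of the catalytic spliceosome, fell. CTNNBL1 was the only gene of the 6 pathway lists called in si-Elk1 (0.91 ± 0.19; adjusted p = 0.0384), where CWC27 was at -0.56 (0.0938).

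Of 42 other tested regulators of alternative splicing, 4 were higher and 10 lower in si-Med23. PTBP2, the neuronal polypyrimidine tract binding protein, fell by 1.84 ± 0.29 (adjusted p = 0.00293), TIA1 by 1.46 ± 0.28 (0.00605), RBM39 by 0.93 ± 0.18 (0.00632) and RBM25 by 1.04 ± 0.25 (0.0115). In si-Elk1 RBM25 was at -0.95 (0.0630) and NOVA2 at 0.96 (0.0690), not called. Of 8 tested genes of the exon junction complex and nonsense-mediated decay, the pathway that removes transcripts with premature stops, UPF2 fell by 2.03 ± 0.25 (0.00202), MAGOHB fell by 0.58 ± 0.17 (0.0251) and EIF4A3 rose by 0.42 ± 0.13 (0.0295), with SMG5 at 0.26 (0.139). In si-Elk1 SMG5 was at -0.51 (0.0654) and UPF2 at -0.83 (0.0921).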

How the data were processed

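The authors deposited linear intensities, 1 signal per probe set. RMA and MAS5 are named in the submitters' processing notes, without saying which step each did. No aligner or genome build applies to the values, and arrays give no read depth, so their number limits the precision. Signals were analysed as log2(value + 1). Of 54675 probe sets, 62 were controls, and 41091 were named by exactly 1 gene in the platform annotation. Each gene was represented by its brightest such probe set over the 9 arrays, and genes dimmer than the median probe set (mean log2 signal 6.05, signal 65.4) were left out, leaving 12616. Groups and replicate numbers come from the labels.

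Groups were compared in limma 3.58.1 (R 4.3.3) by lmFit and eBayes, two-sided, with all 9 arrays in 1 fit and no block, with the Benjamini-Hochberg adjustment over all genes or probe sets tested and a threshold of 0.05. Errors after ± are limma standard errors. The fit was tested on simulated data. The genes and gene lists were chosen with earlier results of these data known.

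Full values are given for the largest rises and falls among called members, the 3 of highest mean, the 5 of smallest p between the knockdowns and members whose probe sets disagree; lists name up to 4 genes of smallest p in si-Med23 and 2 in si-Elk1. Alternatives were other filters, a pseudocount of 16, the mean of all probe sets, leaving out _x_at and _s_at probe sets, quantile normalization, median centring, scaling on hybridization or poly-A controls, a block on the replicate number, a fit of the 6 arrays compared alone, and each array left out.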

Additional observations from a re-analysis of the deposited data

How the results depend on the processing

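The counts of called genes moved with the array scaling more than with other choices. In si-Med23 against si-Ctrl, the 5 higher and 10 lower members became 19 and 4 after median centring. They became 1 and 22 on the hybridization controls, and 0 and 42 on the poly-A spikes. The shares of all genes under these scalings are given above. The higher count became 2 with quantile normalization (21.7% of all genes higher) and 2 with no filter (8.53%). In si-Elk1 against si-Ctrl, 31 were lower on the poly-A spikes. In si-Med23 against si-Elk1, the 2 higher and 6 lower became 23 and 0 after median centring and 0 and 39 on the poly-A spikes. They became 1 and 0 with no filter (2.10% and 2.85% of all genes), and 1 and 0 with only the 6 arrays compared (3.55% and 4.96%). The higher count became 6 with the filter at the 70th percentile (16.2% of all genes), 1 on the hybridization controls (2.85%) and 1 with quantile normalization (9.72%). The lower count became 2 with the mean of all probe sets (9.52%). The cause of these moves was not tested beyond the shift that each scaling adds to all genes.

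The median log2 fold change of the members moved in si-Med23 against si-Ctrl to 0.33 after median centring, -0.40 on the hybridization controls, -1.51 on the poly-A spikes, -0.064 with quantile normalization, -0.12 when probe sets were averaged and -0.43 without _x_at and _s_at probe sets. In si-Elk1 against si-Ctrl it moved to -0.22, -0.27 and -0.72 under the first 3 of these and to -0.18 without _x_at and _s_at probe sets. In si-Med23 against si-Elk1 it moved to 0.49, -0.20 and -0.85 under the first 3, to -0.012 when probe sets were averaged and to -0.10 without _x_at and _s_at probe sets.

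With the replicate number as a block, 3 members were higher and 9 lower in si-Med23 against si-Ctrl (15.8% and 16.8% of all genes). In si-Elk1 against si-Ctrl 0 were called (1.10% and 0.182% of all genes). In si-Med23 against si-Elk1 1 was higher and 0 lower (4.42% and 6.04% of all genes). The deviations of same-numbered arrays from their group means correlated at -0.18 to 0.05 over the 9 pairs, and those of different numbers at -0.06 to 0.12. With 3 arrays a group, and oligo C of si-Elk1 apart from the others, these correlations cannot decide whether the numbers pair the arrays.

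With each array left out in turn, 2 to 7 members were higher and 7 to 10 lower in si-Med23 against si-Ctrl. The counts were 0 in si-Elk1 against si-Ctrl, and 1 to 6 higher and 0 to 9 lower in si-Med23 against si-Elk1. Of all 12616 genes, 3174 to 5884, 109 to 498 and 769 to 4496 were called in these comparisons. The targeted gene MED23 stayed between -2.65 and -2.21 and ELK1 between -2.31 and -1.93.

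The alternatives for probe sets that disagree were chosen after seeing the data. The count in si-Med23 against si-Ctrl became 9 with the filter at the 70th percentile and was 11 to 15 with an array left out. In si-Elk1 against si-Ctrl the 0 became 1 with that filter, 1 with a pseudocount of 16 and 3 on the poly-A spikes. In si-Med23 against si-Elk1 the 11 became 5 with that filter and 6 with the replicate number as a block, and was 2 to 11 with an array left out.

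Some differences changed sign. Those listed here are for genes given full values and were called in the main fit or under the alternative. Other changes of sign are not listed. In si-Med23 against si-Ctrl the hybridization controls shifted every gene by -0.50, so all smaller positive differences turned negative there. Median centring shifted every gene by 0.23 and turned smaller negative differences positive. On the hybridization controls in si-Med23 against si-Ctrl, HNRNPAB came to -0.12, HNRNPD to -0.47, HNRNPU to -0.34 and SRSF1 to -0.39. With the mean of all probe sets, HNRNPA1 came to -0.86, SRSF1 to -0.86 and U2AF1 to -0.086 in that comparison, and SRSF6 to 0.25 against si-Elk1. Without _x_at and _s_at probe sets, HNRNPC came to -0.82, HNRNPU to -1.38, SRSF1 to -0.77 and SRSF11 to 0.063 in si-Med23 against si-Ctrl, and HNRNPD to 0.58, HNRNPU to -1.12, SRSF11 to 0.46 and SRSF8 to -0.69 in si-Med23 against si-Elk1; the probe set changed in each of these. On the poly-A spikes in si-Med23 against si-Ctrl, HNRNPA1 came to -1.49, HNRNPAB to -1.23, HNRNPC to -1.42, HNRNPD to -1.58, HNRNPK to -1.38, HNRNPL to -0.49, HNRNPU to -1.46, SF3A2 to -0.90, SF3B2 to -1.25, SF3B5 to -1.09, SRSF1 to -1.50, SRSF3 to -1.40 and U2AF1 to -1.02. On the spikes in si-Elk1 against si-Ctrl, HNRNPC came to -0.58, HNRNPD to -0.60, HNRNPH1 to -0.63, HNRNPK to -0.59 and SRSF4 to -0.60. On the spikes in si-Med23 against si-Elk1, HNRNPAB came to -0.54, HNRNPC to -0.84, HNRNPK to -0.78, HNRNPU to -0.77, SF3A2 to -0.52, SF3B2 to -0.58, SF3B5 to -0.62, SRSF1 to -0.67, SRSF3 to -0.67, SRSF8 to -0.97 and U2AF1 to -0.72.

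The falls of SF3B1 and HNRNPH3 in si-Med23 against si-Ctrl were called under every alternative that tested them. With 3 arrays a group, and dim probe sets close to the filter level, small differences could not be told from the spread between arrays.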
